A study of Drosophila melanogaster with 8 samples.

Results

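The long terminal repeat (LTR) of Invader 4 holds 27 cytosines in the sequenced amplicon of 149 bases, and 9 of them are followed by T or by C. These 9 were taken from the deposited LTR sequence by the next base alone. The CpT group has 5 members, C11, C21, C43, C45 and C51, and the CpC group has 4, C42, C62, C116 and C129, with positions counted from 1 at the 5′ end of the amplicon. Retained C, the share of C among C and T calls after bisulfite treatment, was measured in whole bodies of adult Drosophila melanogaster of mixed sex, 3 days after hatching. The groups were Dnmt2 mutant flies, homozygous for a mutation whose allele the labels do not name, in the w1118 background, and wild type flies of the w1118 strain. Each genotype was sampled in standard culture, 5 h after a heat shock of 37 °C for 1 h, and 1 day and 3 days after the same heat shock. Each of the 8 groups held 1 library, so the tests on calls compare libraries and not conditions, and intervals cover counting error only.

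Invader 4 is an LTR retrotransposon, which copies itself through RNA, and its LTRs hold the signals that start and end that RNA. Bisulfite turns unmethylated cytosine into uracil, seen as T in the reads, while 5-methylcytosine stays C, so retained C counts methylated and unconverted cytosines together. Dnmt2 has the fold of a DNA cytosine methyltransferase and is best known as a transfer RNA methyltransferase. It is the sole enzyme of that family in Drosophila, where reported DNA methylation was placed largely outside CpG, at CpT and CpA among others.

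The neighbours of the 9 cytosines are shown because the groups and the alignment turn on them. In the 5-base windows below, written 5′ to 3′ on the strand of the deposited sequence, the capital is the cytosine that was measured. The LTR is present in many copies, and no chromosome was assigned to the amplicon.
C11: ttCtg
C21: cgCtg
C43: gcCtc
C45: ctCtg
C51: agCtg
C42: agCct
C62: gtCcg
C116: cgCca
C129: agCca
Of the CpT cytosines, 4 are followed by TG, and 1 of the CpC cytosines, C62, also has G as the third base. Cytosines with G in that place, other than CpG, are called CHG, and those with another base there are called CHH. C42, C43 and C45 lie together in the stretch CCTCT, and full conversion turns it into 5 T in a row. The members are not spread evenly, since 7 of the 9 lie between positions 11 and 62.

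The libraries held 1505 to 2670 reads, and each member was covered by 1063 to 2669 C or T calls in a library. In all, the members gave 2010 C among 142823 calls. By the base differences of their LTR copies, the libraries also fell into 2 sets of 4 that cross the genotype labels. The first set holds Dnmt2 mutant standard, Dnmt2 mutant 1 day, wild type heat shock and wild type 3 days, and the second holds the others. Of 35 substitutions against the reference whose share averaged over 0.5%, 13 separated these sets without overlap, and 2 of the 13 lie at members. C45G was carried by 3.51% ± 0.837 of first-set reads and 1.80% ± 0.455 of second-set reads, and C129A by 7.66% ± 0.288 of first-set and 9.04% ± 0.712 of second-set reads (SD, n = 4 libraries each). Each comparison of the genotypes at a stage is therefore also a comparison of the sets, and the genotypes at a stage cannot be told apart from the sets. Each set would hold a single genotype if the labels of the heat shock and 3 days libraries, or of the standard and 1 day libraries, were swapped between genotypes. Genotypes are named as labelled. Values with swapped labels are given for the 2 classes and, at single cytosines, for the call, the separations described and C21.

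Both groups of cytosines kept less C than the rest of the LTR. The CpT level averaged 1.38% ± 0.214 and the CpC level 1.44% ± 0.143, against 1.95% ± 0.124 at the 10 CpA and 1.62% ± 0.181 at the 8 CpG cytosines (SD, n = 8 libraries). The CpT level was below that of all other cytosines together in 8 of 8 libraries, by a mean of -0.356 ± 0.191 percentage points (exact permutation of signs over libraries, two-sided p = 0.00781, the smallest possible, adjusted p = 0.0104 over 4 classes). The CpC level was also lower in 8 of 8 libraries, by -0.271 ± 0.114 percentage points (exact permutation p = 0.00781, adjusted p = 0.0104). Against CpG alone the order was not the same in every library. In the wild type 3 days library CpT (1.56%) and CpC (1.57%) were above CpG (1.54%). In the Dnmt2 mutant heat shock library CpC (1.46%) was above CpG (1.41%). Elsewhere both classes were below CpG. The test compares these cytosines, whose positions and contexts are fixed in the amplicon, so class and position cannot be told apart. As background, thymines of the reference read as C were counted by the base that follows them. The share was 0.116% ± 0.0326 at the 3 thymines before T and 0.220% ± 0.0561 at the 6 before C (SD, n = 8 libraries). The CpT level was 8.30 to 24.4 times its background and the CpC level 4.07 to 11.7 times. This background counts thymines read as C and does not measure cytosines that bisulfite left unconverted.

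The 9 members ranked between 11 and 27 among the 27 cytosines by mean level, and 5 of them held places among the lowest 8. In descending order the mean levels were 1.70% ± 0.461 at C43, 1.59% ± 0.315 at C116, 1.58% ± 0.373 at C129, 1.52% ± 0.415 at C42, 1.32% ± 0.316 at C45, 1.30% ± 0.286 at C11, 1.30% ± 0.258 at C21, 1.29% ± 0.294 at C51 and 1.10% ± 0.216 at C62 (SD, n = 8 libraries). No neighbours in this order differed by more than the SD of their difference over libraries. The ends of the order did, with C43 above C62 by 0.593 ± 0.430 percentage points and in 7 of 8 libraries.

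With all calls counted, the order followed the third base, a pattern that was noticed in these values and was not tested. The 5 CHG members had mean levels of 1.10% to 1.32%, and the 4 CHH members 1.52% to 1.70%. Reads with an alignment gap at C42 enter the level of C45 but not that of C42. In reads without a gap in the stretch, C45 (CHG) averaged 1.52% ± 0.328 and C42 (CHH) 1.52% ± 0.415 (SD, n = 8 libraries). On those reads C45 and C42 were thus not separated. With calls pooled in each library the level was 1.26% ± 0.181 at CHG and 1.60% ± 0.216 at CHH members, a difference of -0.334 ± 0.162 percentage points that was negative in 8 of 8 libraries (SD, n = 8). Without C42, C43 and C45, 4 CHG and 2 CHH members remained, and the difference was -0.339 ± 0.135 percentage points, again negative in 8 of 8 libraries. At the CpA cytosines, which are no members, the same difference was -0.181 ± 0.112 percentage points and was also negative in 8 of 8 libraries. There the mean levels of single cytosines overlapped, with 1.48% to 2.11% at the 4 CHG and 1.63% to 2.64% at the 6 CHH cytosines. The 2 CHH members outside the stretch, C116 and C129, are also the 2 nearest the 3′ end, so the third base and the position cannot be told apart.

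Gaps in the alignment were frequent at C42 and not at C43 or C45. In the order standard, heat shock, 1 day and 3 days, a gap stood at C42 in 29.1%, 12.0%, 11.4% and 4.70% of Dnmt2 mutant reads, against 7.53%, 12.4%, 11.6% and 13.5% of wild type reads. At C43 gaps were found in at most 0.582% and at C45 in at most 0.0477% of the reads of a library. The Dnmt2 mutant standard library stands apart with the most gaps and the Dnmt2 mutant 3 days library had the fewest. C45 had neither C nor T in 1.35% to 4.51% of reads, almost all of them G, and C129 in 9.44% to 14.3%, for the most part A.

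Reads with a gap at C42 retained almost no C in the rest of the stretch. At C43, 5 of 1911 calls in such reads were C (0.262%, 95% Wilson interval 0.112% to 0.611%), against 277 of 14475 calls in reads without the gap (1.91%, 1.70% to 2.15%). At C45, 0 of 1953 calls were C, which allows a share of up to 0.154%, against 212 of 14056 calls (1.51%, 1.32% to 1.72%). The level was lower in reads with the gap in 8 of 8 libraries at both cytosines. In single libraries none of the 16 Fisher's exact tests passed the adjusted threshold of 0.05 (lowest adjusted p = 0.0676, with 7 under 0.05 before adjustment). At the 24 cytosines outside the stretch, reads with the gap had 1.82% ± 0.361 C and reads without it 1.67% ± 0.136 (SD, n = 8 libraries), and reads with the gap were the lower in 2 of 8 libraries. What gives rise to the gaps was not tested.

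**Figure D1:**
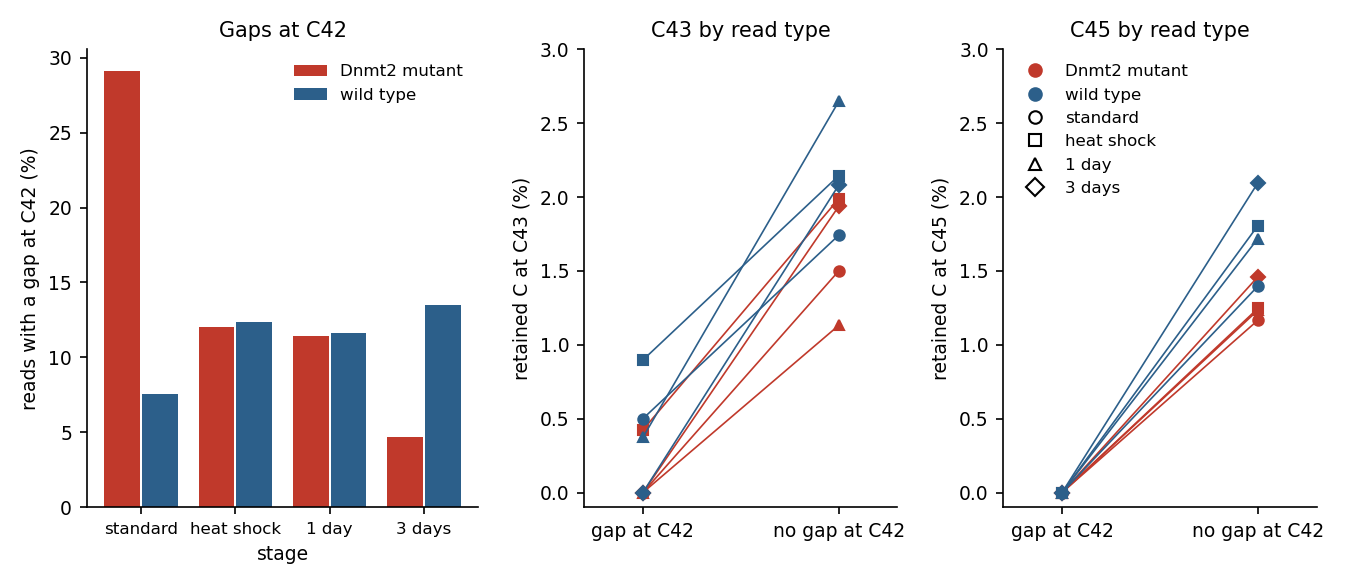
The left panel shows the percent of reads with an alignment gap at C42 for each stage and genotype, 1 library per bar. The other panels join, for each library, the percent of C among C and T calls at C43 and at C45 in reads with the gap and in reads without it; every line rises, and at C45 all 8 libraries stand at 0% in reads with the gap.

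The levels of C43 and C45 thus depended on whether gapped reads were counted. In the Dnmt2 mutant standard library, C43 had 1.06% C over all reads and 1.50% in reads without a gap from position 42 to 46, and C45 had 0.818% and 1.17%. In the wild type standard library the same cytosines had 1.65% and 1.74%, and 1.29% and 1.40%. Over the 8 libraries C43 averaged 1.90% ± 0.453 and C45 1.52% ± 0.328 in reads without such a gap (SD, n = 8).

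The comparison of genotypes asks whether C at these dinucleotides depends on Dnmt2. The CpT level was lower in the Dnmt2 mutant library at all 4 stages, and no single stage passed the adjusted threshold. At the standard stage it was 1.06% in the Dnmt2 mutant (79 of 7464 calls, Wilson interval 0.850% to 1.32%) and 1.42% in wild type (188 of 13277, 1.23% to 1.63%). After heat shock it was 1.28% in the Dnmt2 mutant (131 of 10210, 1.08% to 1.52%) and 1.69% in wild type (156 of 9205, 1.45% to 1.98%). After 1 day it was 1.22% in the Dnmt2 mutant (127 of 10372) and 1.57% in wild type (183 of 11663). After 3 days it was 1.25% in the Dnmt2 mutant (141 of 11308) and 1.56% in wild type (124 of 7968). The differences were -0.358, -0.412, -0.345 and -0.309 percentage points, with adjusted p of 0.108 at the first 3 stages and 0.209 after 3 days (Fisher's exact test on pooled calls, two-sided, adjusted over 4 classes and 4 stages). Before adjustment p was 0.0291, 0.0201, 0.0338 and 0.0784. Of the 16 class tests between genotypes, 0% passed the threshold.

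Over the 4 stages the CpT level was 1.20% ± 0.0995 in Dnmt2 mutant and 1.56% ± 0.114 in wild type libraries (SD, n = 4 libraries each). Taken stage by stage, the difference averaged -0.356 ± 0.0425 percentage points (exact permutation within stages, p = 0.125, the smallest possible, adjusted p = 0.25 over 4 classes). The levels of the genotypes did not overlap, with 1.06% to 1.28% in Dnmt2 mutant and 1.42% to 1.69% in wild type libraries. The CpC level was 1.34% ± 0.108 in Dnmt2 mutant and 1.53% ± 0.117 in wild type libraries. Its mean difference was -0.185 ± 0.0700 percentage points, lower in the Dnmt2 mutant at 4 of 4 stages (exact permutation p = 0.125, adjusted p = 0.25), and the levels overlapped. The CpC differences at single stages ran from -0.281 to -0.120 percentage points, with adjusted Fisher exact p from 0.356 to 0.636.

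**Figure D2:**
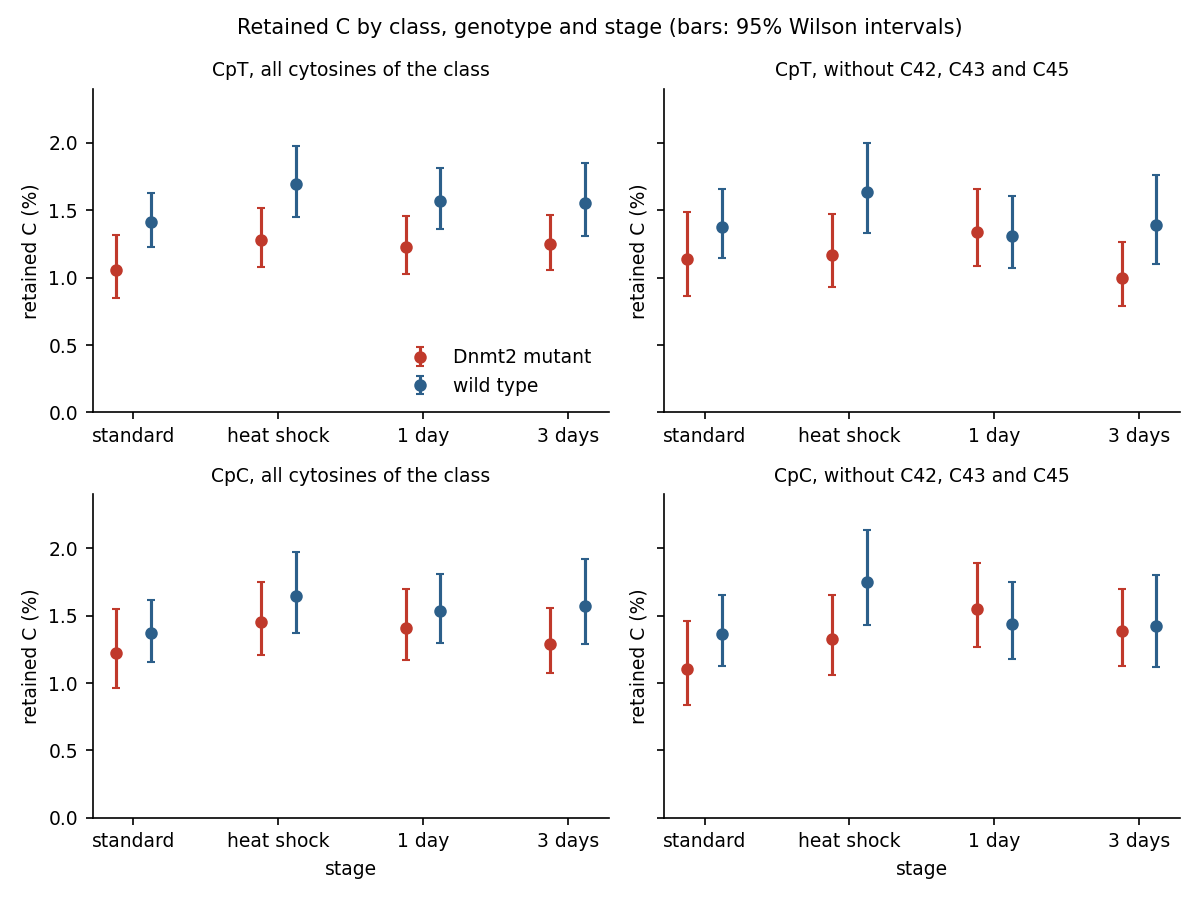
Percent of C among C and T calls for CpT (top) and CpC (bottom) cytosines at each stage, with all cytosines of the class (left) and without C42, C43 and C45 (right). Each point is 1 library with its 95% Wilson interval; with all cytosines every Dnmt2 mutant point lies below its wild type partner, and on the right the order is turned after 1 day in both classes.

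Leaving out the stretch changed this picture. On C11, C21 and C51 alone the CpT level was 1.14%, 1.17%, 1.34% and 1.00% in Dnmt2 mutant libraries at standard, heat shock, 1 day and 3 days, against 1.38%, 1.63%, 1.31% and 1.39% in wild type libraries. The genotypes now overlapped, and after 1 day the Dnmt2 mutant library was the higher by 0.0278 percentage points. The mean difference was -0.268 ± 0.217 percentage points, negative at 3 of the 4 stages (p = 0.25 by exact permutation, adjusted p = 0.5). On C62, C116 and C129 alone the CpC level was 1.10%, 1.32%, 1.55% and 1.39% in Dnmt2 mutant libraries, against 1.37%, 1.75%, 1.44% and 1.42% in wild type libraries. Their mean difference was -0.153 ± 0.239 percentage points, and the Dnmt2 mutant library was again the higher after 1 day, by 0.111. When the stretch was kept and gapped reads were left out, CpT differed by -0.362 ± 0.144 and CpC by -0.136 ± 0.132 percentage points, each lower at all 4 stages. This choice of reads is tied to retained C, since gapped reads held almost no C at C43 and C45. The share left out also differed between libraries, with a gap at C42 in 4.70% to 29.1% of reads. These values are therefore no independent check. Other choices of reads moved the CpC difference, to -0.325 with identical aligned reads counted once and to -0.278 in reads that match the reference outside its cytosines.

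The library sets bear on the genotype comparison directly. In the first set the CpT level was 1.06% and 1.22% in the Dnmt2 mutant standard and 1 day libraries, against 1.69% and 1.56% in the wild type heat shock and 3 days libraries. In the second set it was 1.28% and 1.25% in the Dnmt2 mutant heat shock and 3 days libraries, against 1.42% and 1.57% in the wild type standard and 1 day libraries. The labelled Dnmt2 mutant libraries were thus the lower within both sets, by -0.484 and by -0.228 percentage points, and within a set the genotype and the stage cannot be told apart. For CpC the differences within the sets were -0.293 and -0.0762 percentage points, and in the second set the levels overlapped. Swapping the labels of the heat shock and 3 days libraries gave mean differences of 0.00470 percentage points at CpT and 0.0501 at CpC. Swapping those of the standard and 1 day libraries gave -0.00470 and -0.0501.

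**Figure D3:**
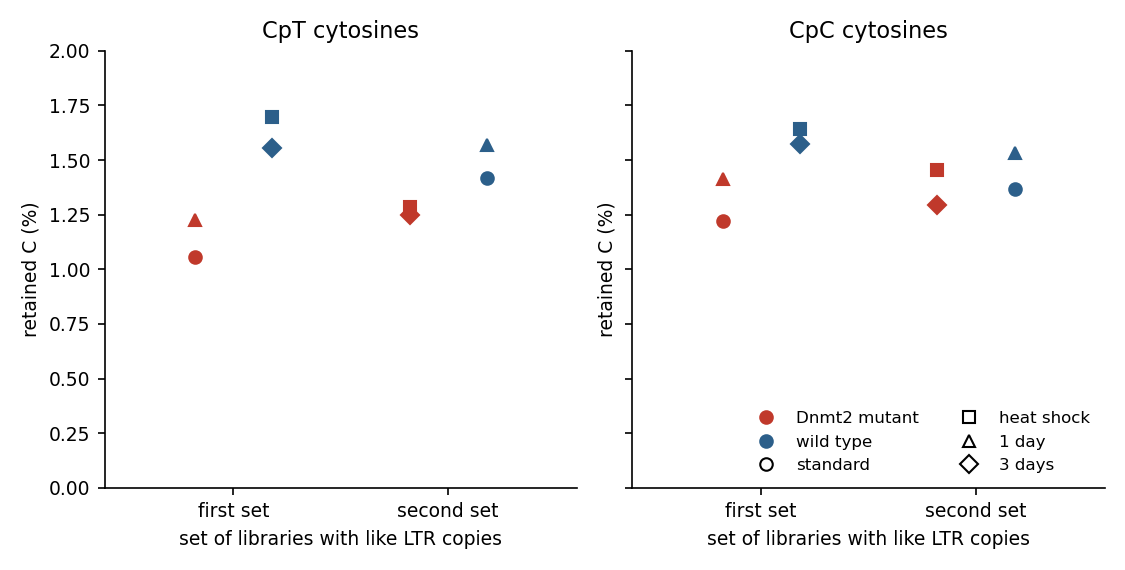
Percent of C among C and T calls at CpT (left) and CpC (right) cytosines, with the 8 libraries arranged by the set of LTR copies and the labelled genotype; symbols give the stage. The CpT points of Dnmt2 mutant libraries lie at or below 1.28% and those of wild type libraries at or above 1.42% in both sets, while CpC points overlap in the second set.

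Among single CpT cytosines, C51 separated the genotypes. Its level was 1.26%, 1.12%, 1.19% and 0.704% in Dnmt2 mutant libraries at standard, heat shock, 1 day and 3 days, against 1.50%, 1.61%, 1.36% and 1.55% in wild type libraries. The mean difference was -0.437 ± 0.309 percentage points (SD, n = 4 stages). C51 was the 1 member of 9 whose Dnmt2 mutant levels all lay below the wild type levels, where 7.41% of all 27 cytosines did so. The other such cytosine was C117, which is CpA. In no stage did the Fisher exact test of C51 pass, with the lowest adjusted p = 0.106 after 3 days (16 of 2273 against 25 of 1609 reads).

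C45 had 0.818%, 1.09%, 1.09% and 1.39% in Dnmt2 mutant libraries, against 1.29%, 1.57%, 1.52% and 1.80% in wild type libraries. Its difference was nearly the same at each stage, -0.448 ± 0.0333 percentage points, although the ranges overlapped. The levels rest on 12 to 35 C in a library, so the small SD over stages is no measure of the counting error. C45 passed Fisher's exact test at no stage, with adjusted p from 0.573 to 0.893. Both the lowest C45 level in the Dnmt2 mutant and the highest share of gapped reads were in the standard library. In reads without a gap, a choice that is tied to retained C, the difference was -0.478 percentage points, lower in 4 of 4 stages.

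C43 was the most variable member, with 1.06%, 1.81%, 1.01% and 1.85% in Dnmt2 mutant libraries, against 1.65%, 1.99%, 2.39% and 1.81% in wild type libraries. It was the 1 member of 9 called after 1 day, where 3.7% of all 27 cytosines were called, with 21 of 2085 C in the Dnmt2 mutant and 56 of 2346 in wild type (Fisher's exact test, adjusted p = 0.0129 over 27 cytosines). The direction was turned after 3 days by 0.0393 percentage points. In reads without a gap C43 was lower in the Dnmt2 mutant at 4 of 4 stages, with a mean difference of -0.515 percentage points. That choice of reads is tied to retained C at C43. In reads that match the reference outside its cytosines, no member was called after 1 day.

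C11 and C21, nearest the 5′ end, showed no steady order of the genotypes. C11 had 0.933%, 1.22%, 1.29% and 1.28% in Dnmt2 mutant libraries, against 1.73%, 1.72%, 1.20% and 1.06% in wild type libraries. C21 had 1.21%, 1.17%, 1.54% and 1.02% in Dnmt2 mutant libraries, against 0.907%, 1.57%, 1.38% and 1.57% in wild type libraries. Each was lower in the Dnmt2 mutant at 2 of 4 stages, and their mean differences of -0.247 ± 0.483 and -0.120 ± 0.414 percentage points were smaller than the SD over stages.

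Among CpC cytosines, C129 had 1.03%, 1.59%, 1.23% and 1.39% in Dnmt2 mutant libraries, against 1.65%, 2.03%, 1.59% and 2.13% in wild type libraries. It was lower in the Dnmt2 mutant at 4 of 4 stages, by -0.541 ± 0.173 percentage points, and the ranges met at 1.59%. C129 is also the member with the most copies that carry another base, chiefly C129A. Copies with A at this place give neither C nor T and so do not enter its level.

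C42 had 1.69%, 1.88%, 0.971% and 1.02% in Dnmt2 mutant libraries, against 1.38%, 1.29%, 1.84% and 2.08% in wild type libraries. The Dnmt2 mutant was thus the higher at standard and heat shock and the lower after 1 day and 3 days (unadjusted Fisher exact p = 0.0301 and 0.0132 at the last 2 stages, adjusted p = 0.322 and 0.106). Reads with a gap at C42 do not enter these levels. At standard they were 29.1% of Dnmt2 mutant and 7.53% of wild type reads. Whether the order at standard would hold with those reads counted was not tested. C62, the member with the lowest mean level, had 0.797%, 0.873%, 1.34% and 1.14% in Dnmt2 mutant libraries, against 0.975%, 1.23%, 1.40% and 1.06% in wild type libraries. C116 had 1.49%, 1.55%, 2.06% and 1.63% in Dnmt2 mutant libraries, against 1.52%, 2.03%, 1.33% and 1.14% in wild type libraries. C116 was the 1 member whose mean difference was positive, 0.176 ± 0.538 percentage points, and its ranges overlapped widely.

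**Figure D4:**
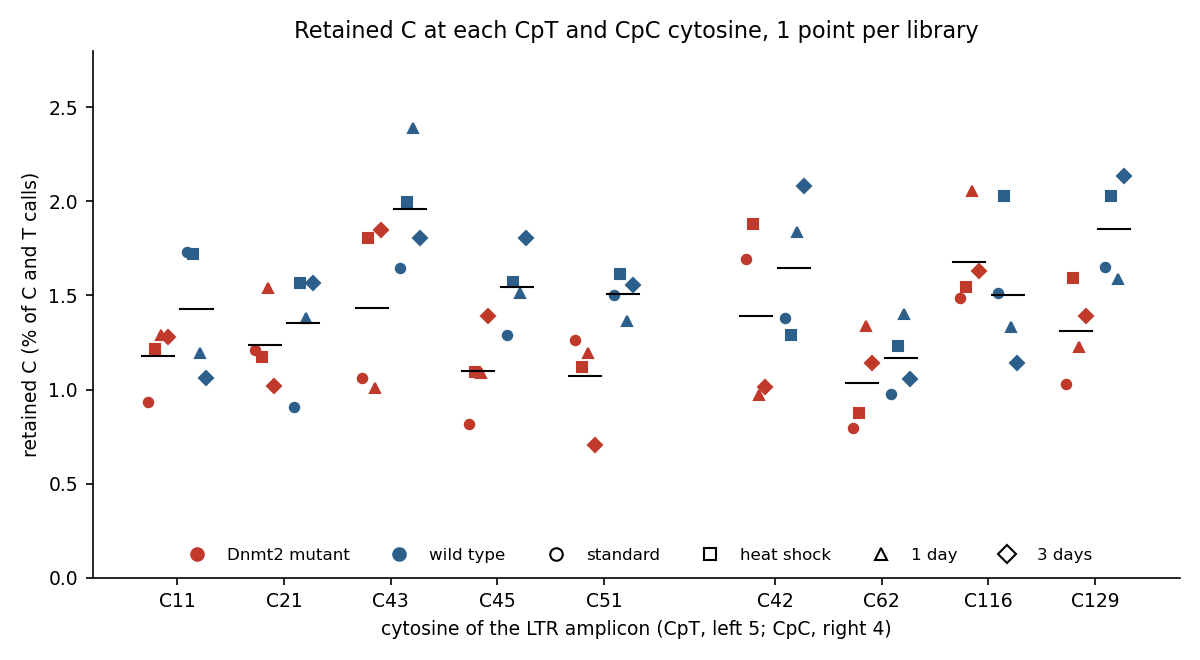
Percent of C among C and T calls at each of the 9 cytosines, with CpT on the left and CpC on the right; each point is 1 library, symbols give the stage, and black lines give the mean of 4 libraries. The genotypes stand clear of each other at C51 alone, and the Dnmt2 mutant mean is the higher at C116 alone.

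Counted over single cytosines, the Dnmt2 mutant library was the lower in 26 of 36 member tests, 15 of 20 at CpT and 11 of 16 at CpC, and in 68 of the 108 tests over all cytosines. The median difference was -0.377 percentage points at members and -0.173 over all cytosines. After adjustment 1 of the 36 member tests passed, C43 after 1 day, where 3.7% of all cytosines were called. At the other 3 stages 0% of the 27 cytosines were called. Before adjustment 5 of 36 member tests and 13 of 108 tests in all had p under 0.05. Lower levels at 4 of 4 stages were found at 3 of 9 members, C45, C51 and C129, and at 18.5% of all 27 cytosines. With the labels of either pair of stages swapped, the genotypes overlapped at all 9 members. C45, C51 and C129 were then lower in the Dnmt2 mutant at 2 of 4 stages, which follows by construction from their order as labelled. At C21 the Dnmt2 mutant was the higher at 4 of 4 stages with heat shock and 3 days swapped, by 0.351 ± 0.163 percentage points. With standard and 1 day swapped it was the lower there at 4 of 4 stages, by -0.351 ± 0.163. With the standard and 1 day labels swapped, C43 after 1 day was the higher in the Dnmt2 mutant, by 1.38 percentage points, also by construction.

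The stages address whether heat shock alters retained C in the LTR and whether an effect lasts into recovery. In Dnmt2 mutant libraries the CpT level was 1.06% at standard, 1.28% after heat shock, 1.22% after 1 day and 1.25% after 3 days. In wild type libraries it was 1.42%, 1.69%, 1.57% and 1.56%. The CpC level in Dnmt2 mutant libraries was 1.22%, 1.46%, 1.41% and 1.29%, and in wild type libraries 1.37%, 1.64%, 1.53% and 1.57%. In both classes and both genotypes the library after heat shock had the highest and the standard library the lowest value. Without C42, C43 and C45 this order held only for CpC in wild type libraries, with 1.75% after heat shock and 1.37% at standard. CpT in wild type libraries was still highest after heat shock, at 1.63%, and CpC in Dnmt2 mutant libraries still lowest at standard, at 1.10%. The CpT level in Dnmt2 mutant libraries was then highest after 1 day, at 1.34%, and lowest after 3 days, at 1.00%, and in wild type libraries it was lowest after 1 day, at 1.31%. The CpC level in Dnmt2 mutant libraries was then highest after 1 day, at 1.55%. In reads without a gap in the stretch, the order held only for CpT in wild type libraries. There CpT in Dnmt2 mutant libraries was highest after 3 days, at 1.30%, with 1.18% after heat shock. CpC was highest after 3 days in wild type libraries, at 1.64%, and lowest after 3 days in Dnmt2 mutant libraries, at 1.32%.

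None of these differences passed. The 12 CpT and CpC differences from standard were all positive, and the 3 of each class and genotype share their standard library. After heat shock the CpT difference was 0.225 percentage points in the Dnmt2 mutant (95% Newcombe interval -0.103 to 0.540, adjusted Fisher exact p = 0.437 over 24 tests; 0.0356 without C42, C43 and C45) and 0.279 in wild type (-0.0470 to 0.619, adjusted Fisher exact p = 0.398). The CpC difference was 0.235 (-0.175 to 0.626) in the Dnmt2 mutant and 0.275 (-0.0932 to 0.662) in wild type, both with adjusted Fisher exact p = 0.437. None of the 12 had p under 0.05 before adjustment. Heat shock and 3 days lie in another library set than standard, so these comparisons also compare the sets, whereas 1 day and standard lie in the same set within each genotype.

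When the labels of the heat shock and 3 days libraries were swapped, the CpT change after heat shock was 0.636 percentage points in the Dnmt2 mutant, with adjusted Fisher exact p = 0.0136, and -0.133 in wild type. Swapping the standard and 1 day labels gave the same 2 values to the opposite genotypes. With the labels as given, the change after heat shock in the Dnmt2 mutant minus that in wild type was -0.0541 percentage points at CpT and -0.0398 at CpC (likelihood-ratio chi-square test of the interaction in a binomial logistic model of the calls, adjusted p = 0.972 for both over 12 tests). At single cytosines 0 of 54 member tests between stages passed, where 3.7% of cytosines were called for wild type heat shock and 0% in each of the other 5 comparisons. Before adjustment 1 of the 54 had p under 0.05. It was C21 in wild type, with 1.57% after heat shock (29 of 1850 reads) against 0.907% at standard (24 of 2647, adjusted Fisher exact p = 0.334).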

How the data were processed

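Bisulfite-treated genomic DNA of 8 libraries was amplified in PCRs of 35 and 15 cycles that added 454 adapters, per the labels' protocols. Reads came aligned to the LTR, per the labels; which aligner and filters were used is not given in the sources used here, nor how inserted bases were treated. The deposited matrices give a code per read and cytosine, 0 for C, 1 for T and NA for other bases and gaps, and a deposited score per read that was not used. The codes matched the aligned bases in all libraries.

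A level is the number of C calls over that of C plus T calls. Tests were Fisher's exact tests on single cytosines with at least 50 reads (adjusted over 27 by Benjamini-Hochberg) and on classes, logistic likelihood-ratio tests, and exact permutations over libraries, in scipy 1.17.1 and statsmodels 0.14.6 under Python 3.11.15. Fisher's exact tests on single cytosines and on the CpT class were tried on simulated data with independent calls. The logistic and permutation tests were not. Calls of 1 read share a molecule, and PCR copies carry no molecular identifiers, so intervals and floors (3 counts) cover counting error only. The members, tests and alternatives were chosen with earlier results of these data known; all 9 members are named, and other cytosines where a small count needs it. The restriction to calls whose next aligned base is C or T was added after the data were seen. The library sets come from LTR copy variants and were taken over from that earlier work.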

Additional observations from a re-analysis of the deposited data

How the results depend on the processing

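The mean CpT difference between genotypes stayed negative, between -0.484 and -0.228 percentage points, and the CpC difference between -0.325 and -0.0762, under every alternative other than swapped labels. These covered the stretch C42 to T46, reads identical to the reference, reads rich in C, identical reads counted once, equal weights, background subtraction, each stage left out, the next base, no stage block and each library set. With heat shock and 3 days labels swapped between genotypes the CpT difference was 0.00470 and the CpC difference 0.0501; the differences at heat shock and 3 days then turn sign by construction, to 0.412 and 0.309 for CpT and 0.189 and 0.281 for CpC. With standard and 1 day labels swapped they turn there, to 0.358 and 0.345 for CpT and 0.149 and 0.120 for CpC. With heat shock and 3 days swapped, the CpT change after heat shock was 0.636 in the Dnmt2 mutant, past the threshold, and -0.133 in wild type; after 3 days the CpT change was 0.498 (adjusted Fisher exact p = 0.0856) and the CpC change 0.353 in the Dnmt2 mutant, against -0.169 and -0.0763 in wild type. With standard and 1 day swapped, the genotypes exchange these values. Without C42, C43 and C45 the differences after 1 day were 0.0278 for CpT and 0.111 for CpC, and the CpT changes were -0.136 after 3 days in the Dnmt2 mutant and -0.0665 after 1 day in wild type. Among reads identical to the reference, 43.9% to 52.9% of a library, 0 members were called between genotypes; CpT differed by 0.0493 after 3 days between genotypes and by -0.0321 and -0.161 in wild type after 1 day and 3 days. Without gapped reads the CpC change after 3 days in the Dnmt2 mutant was -0.0148. With identical reads counted once it was -0.0185, and in wild type the CpC changes were -0.0560 after heat shock and -0.0883 after 3 days. None of these turned values passed the threshold; apart from the construction of swapped labels, the cause was not tested. No count of called members changed when a difference of 1 percentage point or more was required. None changed at coverage minimums of 20 or 200 reads either, which could leave out no member, since each had at least 1063 calls in a library. Each group held 1 library, so replicate numbers could not pair libraries, and the genotypes were paired by stage; without that pairing exact permutation p was 0.0286 for CpT and 0.0857 for CpC (adjusted p = 0.114 and 0.171). At 145 to 325 member C calls per library, counting error limits the comparisons: the interval of the CpT difference at the standard stage ran from -0.657 to -0.0382 percentage points.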

Other observations

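Most reads retained no C at any of the 9 cytosines, 14554 of 16435. A single C was retained in 1763 reads, 2 in 113 and 3 or more in 5. The share of reads with C at a member was 9.10%, 10.8%, 10.5% and 10.7% in Dnmt2 mutant libraries at standard, heat shock, 1 day and 3 days, against 11.5%, 13.7%, 12.7% and 12.1% in wild type libraries. Over the 36 pairs of members, C at both cytosines of a pair was found 161 times in a read, where the product of the levels in each library gives 111. In the Dnmt2 mutant heat shock library, 243 member C lay in 210 reads with 1, 12 reads with 2 and 1 read with more. That 1 read thus held C at all 9 members and supplied 36 of the 161. It adds 1 to the count of every pair. The difference from the product was not tested. The pair found most often was C45 with C62, in 12 reads against a product of 2.41, while C42 with its neighbour C43 was found in 6 against 4.24. Reads with C at another cytosine of the LTR had C at a member in 8.83% to 16.1% of cases and reads without one in 8.23% to 12.7%. The share was higher in reads with another C in 7 of 8 libraries.

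The base that follows a member differs between LTR copies. At C11 0.573% to 2.27% of calls, and at C129 0.776% to 1.86%, were followed by a base other than C or T, and at the other 7 members at most 0.562% were.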
